A study of Mus musculus with 5 samples.

Results

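NP_Mrgpra3 neurons are the cells to which the authors' annotation gives that name, and they were 104 of the 3352 cells in the matrix. The cells were dissociated with collagenase and trypsin from lumbar dorsal root ganglia (DRG) of 5 adult wild type C57BL/6 mice, which were untreated. They were captured in droplets with a Chromium 3′ kit, in which transcripts are counted by their unique molecular identifiers (UMIs). The authors clustered the cells into 14 types from these same counts. Each difference between types reported here therefore gives its size against the spread over mice, and is no independent evidence that the types exist. All mice were of 1 condition, so the comparisons were made between cell types of the same mice. UMIs of the NP_Mrgpra3 cells were summed within each mouse, and levels are given in CPM, the count of a gene in every 1000000 UMIs of that sum. The libraries could not be matched to the sample labels and are named mouse A to mouse E.

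The 104 cells were spread unevenly over the animals. There were 4 in mouse A, 10 in mouse B, 11 in mouse C, 28 in mouse D and 51 in mouse E. They made up 2.76% ± 0.80 of the cells of a mouse (SD, n = 5), with a lowest share of 1.86% in mouse B and a highest of 3.72% in mouse E. Of the neurons the share was 3.11% ± 0.74, and of the neurons whose type name starts with NP it was 7.45% ± 1.01. The exact 95% interval of the share in mouse A, from 0.668% to 6.13%, spanned the shares of all the other mice. NP_Mrgpra3 cells were deeply covered, with a median of 88652 UMIs and 7489.5 genes per cell. Only NP_Mrgprd (median 105150 UMIs) and NF2_Ntrk2.Necab2 (96530.5) lay above them, while NP_Nts cells had a median of 53136 UMIs. The summed counts behind each CPM value ran from 510774 UMIs in mouse A to 3974023 in mouse E. Values of mouse A thus rest on 4 cells and carry the largest counting error. Of the 7 cell barcodes found in 2 libraries, 0 belonged to NP_Mrgpra3.

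Itch is carried from the skin by unmyelinated sensory neurons that fall into separate classes. The class marked by Mrgpra3, a receptor activated by the antimalarial drug chloroquine, responds to several itch-inducing substances, signals through G proteins and TRP channels, and releases glutamate and peptides in the spinal cord. It stands beside the Mrgprd class, nociceptors that end in the epidermis, and a class rich in the peptides Nppb, Sst and Nts, which carries receptors for cytokines and leukotrienes.

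Mrgpra3 itself was the gene that names the type, and its level is given as a check of the annotation. The summed cells held 390 CPM in mouse A, 370 in mouse B, 611 in mouse C, 556 in mouse D and 413 in mouse E. The next type, NP_Nts, held 7.83 ± 3.98 CPM (SD, n = 5), and NP_Mrgprd held 1.23 ± 1.66. No mouse overlapped between NP_Mrgpra3 and any of the other 13 types. A Mrgpra3 UMI was found in 98 of the 104 cells, a share of 94.2% with an exact 95% interval from 87.9% to 97.9%. Such a UMI was also found in 24.25% of 400 NP_Nts cells and 5.78% of 900 NP_Mrgprd cells. In satellite glia, which should lack the gene, 1.61% of 249 cells had such a UMI at a median depth of 17729 UMIs. Cells were then thinned to 20000 UMIs, and shallower cells were left out. The shares were 93.2% of 103 NP_Mrgpra3 cells, 9.28% of 388 NP_Nts cells, 1.80% of 887 NP_Mrgprd cells and 1.54% of 65 glia.

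The level differed widely from cell to cell. A cell held 41 Mrgpra3 UMIs at the median and 117 at most. There were 39 cells with 50 or more UMIs, 38 with 20 to 49 and 20 with 5 to 19. A single UMI was held by 1 cell, and 6 cells held none. The plot of Mrgpra3 against total UMIs shows these cells at the lower edge. These counts are not adjusted for depth.

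**Figure D1:**
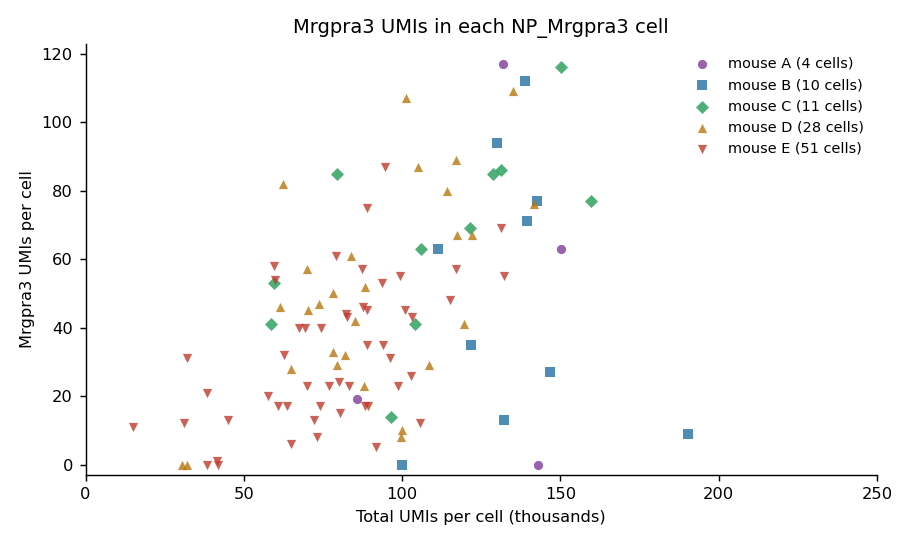
Mrgpra3 UMIs (y axis) against total UMIs (x axis) in each of the 104 NP_Mrgpra3 cells, with 1 symbol and colour per mouse. The 6 cells at 0 UMIs come from mice A, B, D and E, and the other cells reach 117 UMIs.

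Some of the cells without Mrgpra3 carried genes of other types. The cell of mouse A held 142956 UMIs in all and 422 UMIs of Tac1, the gene of substance P, which is 94.6% of the Tac1 UMIs of the type in that animal. The cell of mouse B held 70 UMIs of Nts, or 95.9% of those in mouse B, and a cell of mouse E held 21 of the 24 in mouse E. Among the cells with Mrgpra3, the deepest of all, with 190484 UMIs in mouse B, held 9 of Mrgpra3 together with 12 of Mrgprd, 32 of Lpar3 and 31 of Gfra2, all 3 being genes of NP_Mrgprd. A cell of mouse C held 69 UMIs of Mrgpra3 and 26 of Mrgprd. Whether these cells were droplets with more than 1 cell was not tested. Tac1 and Nts are given with and without the 6 cells, and Mrgprd, Lpar3 and Gfra2 with and without the cells of mice B and C.

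Mrgpra3 lies in a cluster of Mrgpra, Mrgprb and Mrgprx genes on chromosome 7. Mrgprd and Mrgpre lie far from it on the same chromosome. On mm10 (GENCODE annotation of the same assembly), Mrgpra3 lies at 47588950 to 47601372 and Mrgprx1, which encodes a receptor of proenkephalin-derived peptides, at 48020971 to 48027597, both on the minus strand. Mrgprx1 held 7.83, 2.96, 9.20, 4.38 and 4.53 CPM in mice A to E against 0.394 ± 0.0844 in the other neurons, and 33 of 104 cells had a UMI. Cells with Mrgprx1 were deeper (median 96595 UMIs) than cells without it (87702), and in satellite glia 0 of 249 cells had a UMI, which allows a share of up to 1.20%. Mrgprb4, a gene of stroking-sensitive neurons next to Mrgprb5, had 0 UMIs in all 104 cells, which allows a share of up to 2.88% of cells with a UMI. This was not particular to the type, since 1 of 900 NP_Mrgprd cells and 1 of 400 NP_Nts cells had a Mrgprb4 UMI. Mrgprb5 held 12 UMIs in 11 cells, and none was left in any cell at 20000 UMIs. Counts of this family can be split between near-identical copies. Of the 55-base stretches in annotated Mrgpra3 transcripts, 5.16% also occur in another Mrgpr transcript, mostly in Mrgpra4. For Mrgpra2a and Mrgpra2b the shares were 86.2% and 80.0%, so their counts (7.63 and 22.9 CPM) are uncertain.

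The promoters of 2 genes are shown as the sequence at the annotated starts of genes that set these cells apart: Mrgprx1, the other Mas-related gene that was higher than in the other neurons, and Ovol2, a zinc finger transcription factor with the second largest fold over other neurons among genes of at least 20 CPM. The windows are 300 bases around the start in RefSeq on GRCm38.p6, at chr7:48027548-48027847 and chr2:144331313-144331612, both read on the minus strand 5′ to 3′.
Mrgprx1: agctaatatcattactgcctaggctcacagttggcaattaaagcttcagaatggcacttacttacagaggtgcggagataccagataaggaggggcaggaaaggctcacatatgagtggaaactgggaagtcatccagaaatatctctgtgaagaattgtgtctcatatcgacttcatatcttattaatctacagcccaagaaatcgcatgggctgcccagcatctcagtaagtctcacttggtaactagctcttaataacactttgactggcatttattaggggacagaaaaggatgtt
Ovol2: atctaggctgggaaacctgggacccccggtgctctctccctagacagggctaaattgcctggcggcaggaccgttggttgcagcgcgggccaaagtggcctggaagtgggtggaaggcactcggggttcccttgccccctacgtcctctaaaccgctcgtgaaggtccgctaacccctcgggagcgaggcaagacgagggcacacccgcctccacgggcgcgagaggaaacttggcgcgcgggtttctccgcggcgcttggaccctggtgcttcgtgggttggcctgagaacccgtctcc
The cores TGTGGT, of RUNX factors, and CCGGAA, of ETS factors, were searched on both strands, because Runx1, Etv1 and Etv4 differed between the types. Neither was found in these windows, nor in any of the 10 windows held for 7 of the 10 genes with the largest fold over other neurons. Of all 32851 windows of this length, 16.8% held the RUNX core and 14.9% the ETS core. The absence of these letters from a window says nothing about the factors.

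Against the sum of the other 2943 neurons, 347 of 11693 genes tested were higher in NP_Mrgpra3 (2.97%) and 1266 were lower (10.8%). A gene was called when its adjusted p in edgeR was under 0.01 and its difference at least 2-fold. The other neurons are a mixture of 11 types, so a gene strong in any of them raises their sum. Against NP_Mrgprd, 654 of 10023 genes were higher (6.52%) and 515 lower (5.14%). Against NP_Nts, 694 of 9035 genes were higher (7.68%) and 671 lower (7.43%). The 3 comparisons share the NP_Mrgpra3 sums. When the other neurons were taken instead as the mean over their 11 types on the log scale, 876 genes were higher and 954 lower.

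Of 21 Mas-related receptor genes listed, 14 were in the matrix and 7 passed the filter on low counts against the other neurons. Mrgpra3 and Mrgprx1 were higher, by 8.30 ± 0.38 and 3.82 ± 0.34 on the log2 scale (± standard error), and Mrgprd was lower, by a log2 fold change of -3.82 ± 0.37, which turned to 2.28 against the mean of the 11 other neuron types. Against NP_Mrgprd, Mrgpre was also called, with 16.4 ± 1.96 CPM against 6.68 ± 0.90 (log2 fold change 1.34 ± 0.16). Mrgpre encodes an orphan receptor of the family. Mrgprd held 1.96, 11.1, 21.7, 1.59 and 3.02 CPM in mice A to E of NP_Mrgpra3, and between 220 and 286 CPM in NP_Mrgprd. The higher values in mice B and C came mainly from single cells, which held 12 of 15 and 26 of 26 of the UMIs. Without these cells the values were 2.58 and 0 CPM.

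**Figure D2:**
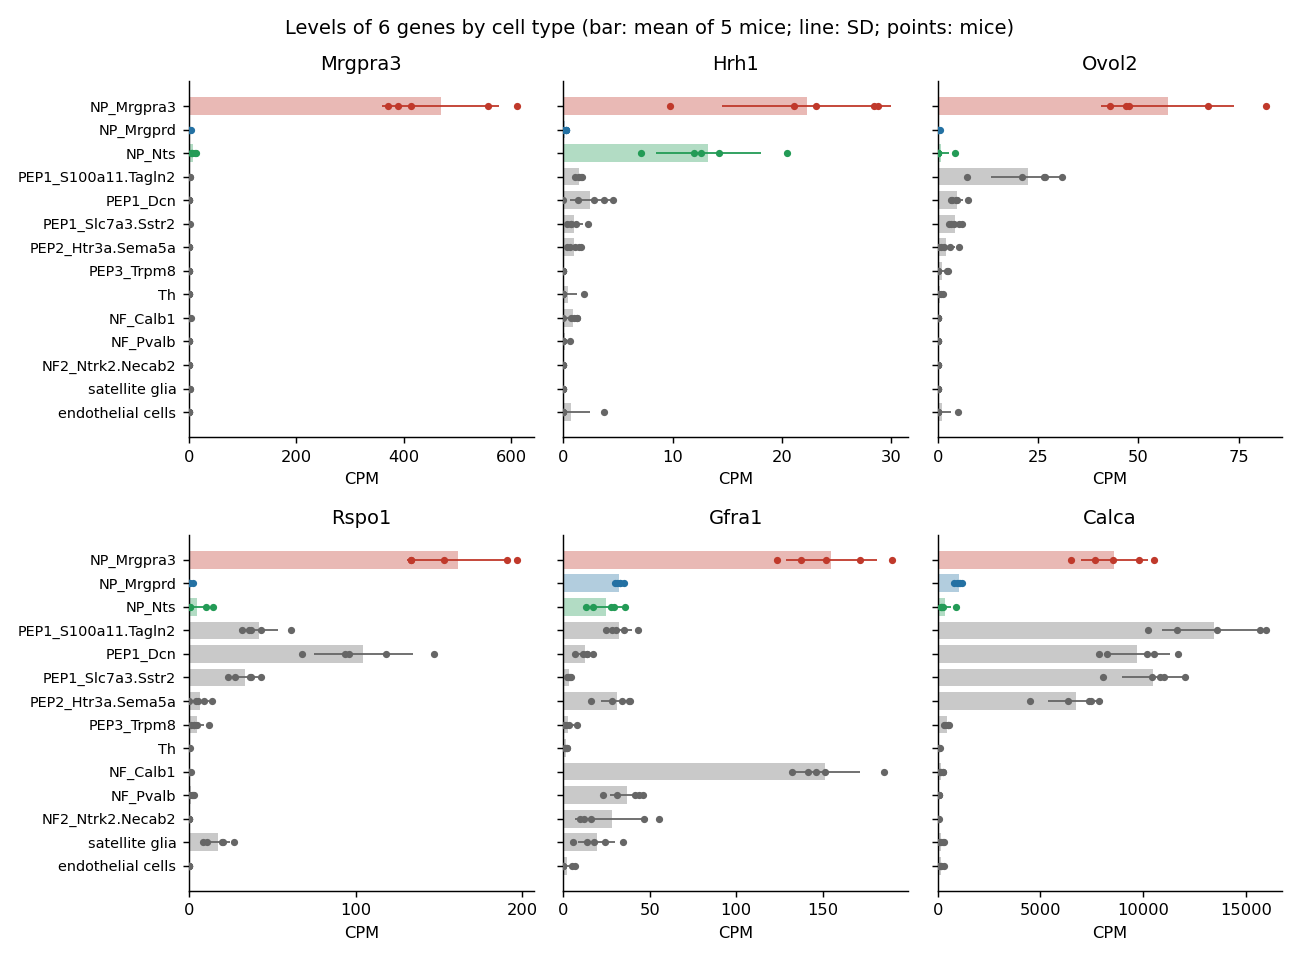
CPM (x axis) of Mrgpra3, Hrh1, Ovol2, Rspo1, Gfra1 and Calca in each of the 14 cell types (y axis), with bars for the mean of 5 mice, lines for the SD and points for mice. NP_Mrgpra3 is the highest type for the first 5 genes, with overlapping mice in NP_Nts for Hrh1, PEP1_Dcn for Rspo1 and NF_Calb1 for Gfra1, and the fourth for Calca.

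Receptors of itch mediators separated NP_Mrgpra3 from both other NP types. Of 46 such genes listed, 40 were in the matrix and 24 were tested against the other neurons. The histamine receptor gene Hrh1 was the only one called higher, and 11 were lower (2.97% and 10.8% of all genes tested). Hrh1 held 9.79 CPM in mouse A, 28.8 in mouse B, 28.4 in mouse C, 21.1 in mouse D and 23.1 in mouse E, and the other neurons held 1.67 ± 0.41 (log2 fold change 3.94 ± 0.24, adjusted p = 5.5e-09 in edgeR). In NP_Mrgprd the gene was nearly absent, with 0.187 ± 0.106 CPM. The nearest type was NP_Nts, with 13.3 ± 4.82 CPM, and there the mice overlapped. The difference from NP_Nts was called (log2 fold change 1.12 ± 0.25, adjusted p = 0.0012 in edgeR) but not without mouse E (0.89, adjusted p = 0.013 in edgeR). Of 104 cells, 85 had a Hrh1 UMI, against 0 of 249 satellite glia.

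The serotonin-gated channel gene Htr3a was strong in NP_Mrgpra3 and nearly absent from both neighbours. It held 29.4, 56.9, 100 (100.4), 73.7 and 77.7 CPM in mice A to E, against 2.08 ± 0.85 in NP_Mrgprd and 1.25 ± 1.21 in NP_Nts. No mouse overlapped in either comparison (log2 fold changes 5.05 ± 0.26 and 5.57 ± 0.34). Against all other neurons, which held 81.8 ± 26.6 CPM, the difference of -0.07 ± 0.23 did not pass the test. Htr3b, which encodes a partner subunit and was named after its values were seen, held 25.02 ± 7.11 CPM and was called higher in the 3 comparisons (13.3 ± 3.52 CPM in the other neurons, 8.52 ± 2.71 in NP_Mrgprd and 1.41 ± 1.12 in NP_Nts), with overlapping mice in the first. Among serotonin receptors coupled to G proteins, Htr7 had 2 UMIs and Htr1f had 3 in all, whereas NP_Nts held 382 ± 60.7 CPM of Htr1f, a pooled ratio of 1192 (95% counting interval 408 to 5782).

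Il31ra, Osmr and Cysltr2 were lower in NP_Mrgpra3 than in NP_Nts. Il31ra, the receptor of interleukin 31, held 3.92, 2.22, 3.35, 2.39 and 1.26 CPM in mice A to E of NP_Mrgpra3 and 286 ± 26.0 in NP_Nts (log2 fold change -6.93 ± 0.19). Its partner Osmr was intermediate. It held 94.0, 62.8, 66.9, 63.7 and 57.4 CPM in NP_Mrgpra3, which was above all mice of NP_Mrgprd (8.85 ± 4.22, log2 fold change 3.07 ± 0.23) and below all mice of NP_Nts (336 ± 28.3, log2 fold change -2.24 ± 0.12). Jak1, the kinase used by both receptors, followed the same order, with 426 ± 63.0 CPM in NP_Mrgpra3, 88.2 ± 18.8 in NP_Mrgprd and 2420 ± 203 in NP_Nts, and no mouse overlapped between the types. Cysltr2, a cysteinyl leukotriene receptor, had 9 UMIs in 6 cells of NP_Mrgpra3 against 79.3 ± 13.4 CPM in NP_Nts (log2 fold change -6.16 ± 0.38). Its lower level against the other neurons was called, but not without mouse C, D or E (adjusted p = 0.013, 0.014 and 0.032 in edgeR) nor in DESeq2 (adjusted p = 0.047), and against the mean of the 11 types it turned to 1.21.

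Of the mediator receptors tested against NP_Nts, 4 of 18 were higher and 9 lower (7.68% and 7.43% of all genes tested). The higher ones were Hrh1, Htr3a, the interleukin 4 receptor gene Il4ra and the prostaglandin D2 receptor gene Ptgdr. Ptgdr held 25.5, 19.95, 38.5, 22.3 and 32.5 CPM in mice A to E, and 4 UMIs in all in NP_Nts (log2 fold change 7.04 ± 0.37). Il4ra held 29.3 ± 8.51 CPM against 16.1 ± 6.25 and the mice overlapped. Against NP_Mrgprd, 7 of 15 were higher and 2 lower (6.52% and 5.14% of all genes tested). Lpar3, a receptor of lysophosphatidic acid, was lower, with 312 ± 45.3 CPM in NP_Mrgprd. In NP_Mrgpra3 it held 24.4 CPM in mouse B, where 32 of 33 UMIs came from 1 cell and 0.86 CPM was left without it, and at most 1.26 in the other mice. The prostacyclin receptor gene Ptgir was higher than in NP_Mrgprd, with 22.9 ± 4.68 against 0.384 ± 0.182 CPM (log2 fold change 5.90 ± 0.25). The plot of receptor genes in the NP types shows these differences mouse by mouse.

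**Figure D3:**
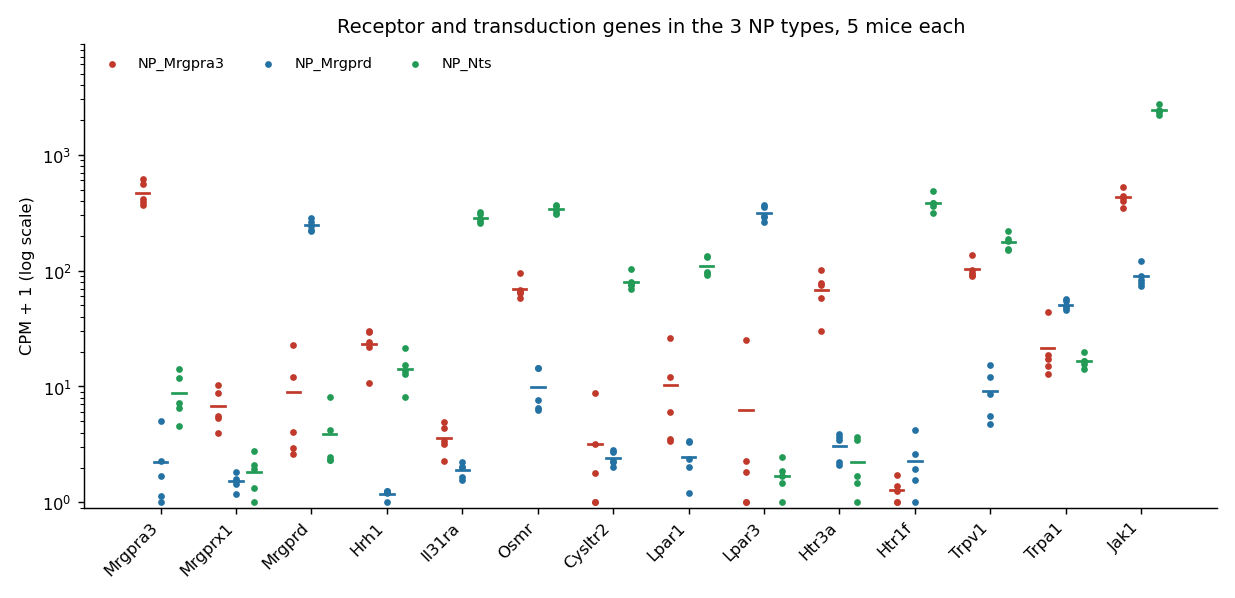
CPM + 1 on a log scale (y axis) of 14 receptor and transduction genes (x axis) in NP_Mrgpra3, NP_Mrgprd and NP_Nts, with a point per mouse and a dash at the mean. Hrh1 and Htr3a lie lowest in NP_Mrgprd or NP_Nts, and Osmr and Jak1 lie between both other types.

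Transduction genes differed in both directions. Plcb3, a phospholipase C, held 131, 95.3, 92.0, 92.4 and 102 CPM in mice A to E, with 109 ± 18.6 in NP_Mrgprd and 135 ± 18.1 in NP_Nts, and no comparison called it. Of 34 transduction genes listed, 33 were in the matrix. Against the other neurons 26 were tested. Of these Trpm4, a calcium-activated cation channel, was higher and 7 were lower (2.97% and 10.8% of all genes tested). Against NP_Mrgprd 3 of 21 were higher and 6 lower (6.52% and 5.14% of all genes). Against NP_Nts 2 of 20 were higher and 2 lower (7.68% and 7.43%). Trpv1, the heat and capsaicin channel, held 88.1, 90.1, 135, 99.2 and 94.9 CPM. This was above NP_Mrgprd in every mouse (8.20 ± 4.41, log2 fold change 3.66 ± 0.24) and below NP_Nts in every mouse (177 ± 27.9), where the log2 fold change of -0.68 ± 0.14 was under 2-fold. Trpa1, the irritant channel, held 43.1 CPM in mouse A and 11.8 to 17.6 in the other mice, and 17 of the 22 UMIs in mouse A came from 1 cell. Its level was lower than in NP_Mrgprd in every mouse (49.6 ± 4.68, log2 fold change -1.51 ± 0.18), and the difference from NP_Nts (0.24 ± 0.24) did not pass the test. UMIs of Trpa1 and Trpv1 occurred together in 71 of 104 cells, and 31 had Trpv1 alone.

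NP_Mrgpra3 neurons carried the gene of calcitonin gene-related peptide (CGRP), Calca, at a level close to that of peptidergic types. Calca held 9811 CPM in mouse A, 6470 in mouse B, 10512 in mouse C, 7651 in mouse D and 8551 in mouse E. The mean of 8599 ± 1625 was the fourth of 14 types, after PEP1_S100a11.Tagln2 (13435 ± 2504), PEP1_Slc7a3.Sstr2 (10482 ± 1498) and PEP1_Dcn (9700 ± 1619), and its mice overlapped with those of all 3. It exceeded NP_Mrgprd (1010 ± 141, log2 fold change 3.11 ± 0.13) and NP_Nts (333 ± 309, log2 fold change 4.88 ± 0.40) in 5 of 5 mice. The lowest count, 27 Calca UMIs, was in a cell of mouse E that had no Mrgpra3 UMI and 21 of Nts. All 104 cells had a Calca UMI. Since 88.0% of satellite glia also had a Calca UMI, the share of cells says little, and the UMIs per cell carry the difference. All 10 listed genes of peptidergic neurons were tested against the other neurons, a sum that includes the peptidergic types. Calca was the only one higher, while Tac1, Adcyap1, Kit, Gal, Avpr1a and Smr2 were lower (median log2 fold change -2.36, against -0.06 over all genes). Against NP_Mrgprd 4 of 7 tested were higher and 0 lower (median 2.79). Against NP_Nts 3 of 6 were higher and 0 lower (median 1.92). Calcb, which encodes a second CGRP, was also higher than in NP_Nts (490 ± 77.3 against 52.5 ± 13.5 CPM, log2 fold change 3.40 ± 0.16).

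Of 26 peptide and transmitter genes listed, 24 were in the matrix and 17 were tested against the other neurons. Of these Calca was higher and 11 were lower (2.97% and 10.8% of all genes tested). Nppb and Sst, peptides of NP_Nts, had 12 UMIs and 1 UMI in all 104 cells, against 628 ± 177 and 1010 ± 452 CPM in NP_Nts. Nts held 53.9 CPM in mouse B and between 0 and 6.04 in the other mice. Its log2 fold change against NP_Nts was -6.20 ± 0.56, and -9.83 without the 6 cells that lacked Mrgpra3. Tac1 held 873 CPM in mouse A, 184 in mouse B, 148 in mouse C, 62.1 in mouse D and 187 in mouse E. Against the other neurons its log2 fold change was -1.99 ± 0.45 (adjusted p = 0.0023 in edgeR), which was not called without mouse B or mouse C (adjusted p = 0.017 and 0.016) nor in DESeq2 (adjusted p = 0.012). Without the 6 cells it was -2.89 (adjusted p = 1.9e-07 in edgeR), and Tac1 was then also lower than in NP_Nts (-1.03, adjusted p = 0.0098 in edgeR), a difference that was -0.07 ± 0.47 with them. Grp, gastrin-releasing peptide, had 28 UMIs in 16 cells and was too low to be tested. Nmb, neuromedin B, held 515 ± 84.0 CPM and was called in no comparison.

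Among growth factor receptors, Gfra1 was high and Gfra2 was low. Gfra1, a receptor of glial cell line-derived neurotrophic factor (GDNF), held 190 (189.9), 171, 124, 152 and 137 CPM in mice A to E, against 35.7 ± 6.85 in the other neurons (log2 fold change 2.22 ± 0.14). The type shared the highest rank with NF_Calb1 (151 ± 20.3), whose mice overlapped with it, and the next type was NF_Pvalb with 37.0 ± 9.82. Gfra2, the receptor of neurturin, held 0.836 to 2.26 CPM in 4 mice and 23.6 in mouse B, where 31 of 32 UMIs came from 1 cell and 0.86 CPM was left without it. NP_Mrgprd held 175 ± 8.36 CPM of Gfra2 (log2 fold change -5.04 ± 0.37). Ngfr, a receptor that binds all neurotrophins, was called lower than in the other neurons but higher than in both other NP types. It held 80.3 ± 8.55 CPM against 2.24 ± 1.18 in NP_Mrgprd and 11.6 ± 5.88 in NP_Nts. Sort1, which pairs with Ngfr as a receptor of neurotrophin precursors, was higher in both NP comparisons too (log2 fold changes 4.22 ± 0.31 and 5.26 ± 0.40). Ret, the signalling partner of the GDNF family receptors, held 263 ± 35.7 CPM. It was called against NP_Nts at a log2 fold change of 1.00 ± 0.14, which lay at the 2-fold limit and was not called without mouse A, C or D. Of 25 receptors listed, 23 were in the matrix. Against the other neurons 1 of 16 tested was higher and 8 were lower (2.97% and 10.8% of all genes tested). Against NP_Mrgprd 5 of 13 were higher and 2 lower (6.52% and 5.14%). Against NP_Nts 6 of 10 were higher and 1 lower (7.68% and 7.43%).

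Among transcription factors, Ovol2 stood out. It is not on the list of 29 lineage factors and was named by the size of its difference. Ovol2 held 47.0, 42.9, 47.7, 67.3 and 81.8 CPM in mice A to E against 1.88 ± 0.42 in the other neurons (log2 fold change 5.09 ± 0.22). In NP_Mrgprd there were 11 UMIs in 92245664, and in NP_Nts 3 UMIs in 21310364, a pooled ratio of 471 (95% counting interval 160 to 2291). The next type was PEP1_S100a11.Tagln2 with 22.5 ± 9.23 CPM, and no mouse overlapped. A UMI was found in 95 of 104 cells and in 0 of 249 satellite glia. Of the listed factors, 26 were in the matrix and 24 were tested against the other neurons. Of these, 2 were higher and 10 lower (2.97% and 10.8% of all genes tested). Both higher ones were ETS factors. Etv1 held 213 to 236 CPM in all mice, against 61.3 ± 16.1 in the other neurons, 6.58 ± 2.05 in NP_Mrgprd and 320 ± 27.5 in NP_Nts. Etv4 held 15.1 and 7.05 CPM in mice D and E and 1.67 to 2.22 in the others. Runx1, which directs the nonpeptidergic lineage, was low for an NP type. It held 60.7, 64.3, 70.3, 55.4 and 47.6 CPM, below every mouse of NP_Mrgprd (176 ± 13.1, log2 fold change -1.58 ± 0.11) and of NP_Nts (180 (180.0) ± 13.8, log2 fold change -1.52 ± 0.12). Casz1, a zinc finger factor, was higher than in NP_Nts, which had 11 UMIs of it in all (64.2 ± 8.58 against 0.537 ± 0.488 CPM, log2 fold change 6.91 ± 0.24).

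Ion channels of excitability were shared with the neighbours, with some exceptions. Of the sodium channel genes, Scn9a, Scn10a and Scn11a held 235 ± 16.4, 246 ± 61.2 and 297 ± 72.3 CPM and were called in none of the 3 comparisons. Scn3b, a beta subunit, was higher than in NP_Mrgprd (74.1 ± 12.3 against 10.7 ± 2.55 CPM, log2 fold change 2.76 ± 0.16) and differed from NP_Nts by 0.26 ± 0.15. Of the ATP-gated channel genes, P2rx3 held 114, 201, 197, 160 (159.7) and 188 CPM and lay under every mouse of NP_Mrgprd (289 ± 16.9), a difference under 2-fold. P2rx2 held 31.3, 28.8, 40.1, 49.4 and 43.3 CPM, far above NP_Mrgprd, which had 26 UMIs in all (log2 fold change 7.17 ± 0.31), and below NP_Nts (111 ± 12.7, log2 fold change -1.33 ± 0.14). P2ry2, a receptor of ATP and UTP coupled to G proteins, held 5.87, 17.0, 25.1, 26.3 and 21.4 CPM against 0.493 ± 0.310 in NP_Mrgprd and 2 UMIs in NP_Nts. Piezo2, the touch channel, held 68.5, 52.5, 66.1, 89.2 and 87.3 CPM, lower than in NP_Mrgprd (212 ± 13.7, log2 fold change -1.48 ± 0.12) and higher than in NP_Nts (20.8 ± 8.14, log2 fold change 1.88 ± 0.20). Adora2b, an adenosine receptor, was highest in NP_Mrgpra3 with 67.4 ± 20.1 CPM, and 97 of 104 cells had a UMI, as did 0.803% of glia.

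Of 24 receptors that lower firing listed and 20 in the matrix, 13 were tested against the other neurons. Of these, 9 were lower (10.8% of all genes tested) and 4 were not called. A gene strong in any of the 11 types passes the filter even if nearly absent here. The count therefore does not describe a trait of NP_Mrgpra3. Against NP_Mrgprd 3 were tested, of which Adora1 was lower and 2 were not called. Oprk1, the kappa opioid receptor, had 0 UMIs in NP_Mrgpra3 and 386 in the other neurons, at least 5.86-fold lower when 3 counts are allowed for the 0 over the group. Oprk1 was at 0 in NP_Mrgprd and NP_Nts as well. Sstr2, a somatostatin receptor, also had 0 UMIs and was at least 15.8-fold lower, and it had 7 UMIs in NP_Mrgprd and 4 in NP_Nts. The delta opioid receptor gene Oprd1 had 0 UMIs, but its 75 UMIs in the other neurons leave a bound of only 1.14-fold. Oprm1, the mu opioid receptor, had 16 UMIs and a difference of 0.06 ± 0.41. The adenosine receptor gene Adora1 lay between the other NP types, with 15.9 ± 4.76 CPM against 69.9 ± 5.64 in NP_Mrgprd and 5.47 ± 2.36 in NP_Nts. Against NP_Nts, 4 of the list were tested, of which Adora1 and the glutamate receptor gene Grm7 (26.6 ± 4.88 against 9.61 ± 4.198 CPM) were higher and Npy2r was lower. Gabbr1, a subunit of the GABA-B receptor, held 133 ± 20.8 CPM and was called in no comparison.

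**Figure D4:**
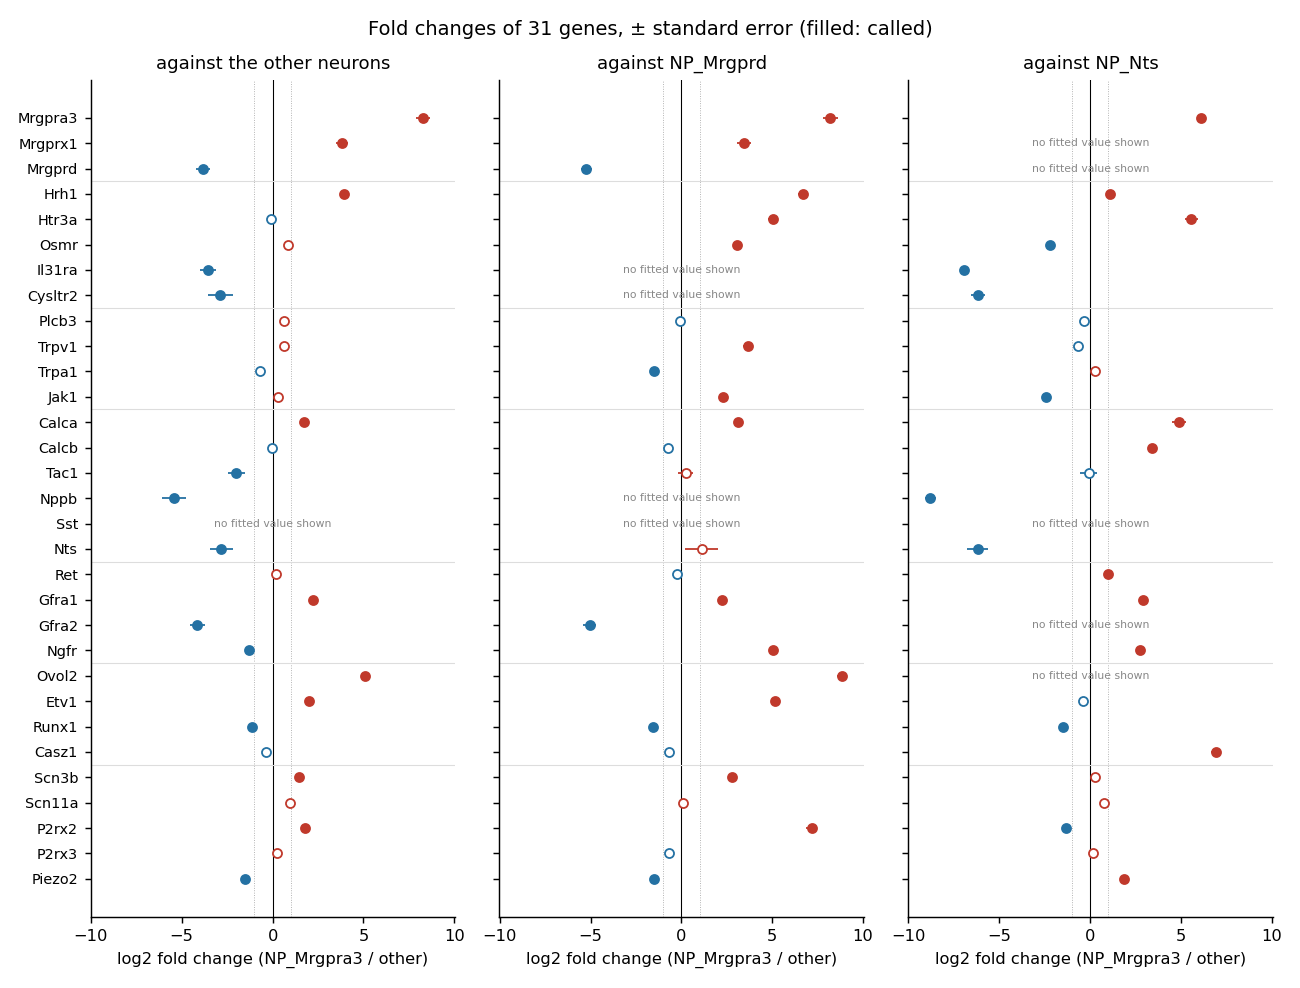
Log2 fold change of NP_Mrgpra3 over the other neurons, NP_Mrgprd and NP_Nts (x axis) for 31 genes (y axis), with the standard error of edgeR as a line, filled points for called genes and dotted lines at 2-fold. No point is drawn for a gene that was not tested or had under 4 UMIs in a group. Gfra1, Calca and Hrh1 lie on the positive side of 2-fold in all panels, and Runx1 on the negative side.

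Beyond the lists, the genes with the largest fold over other neurons after Mrgpra3 and Ovol2 were Tmprss11c, Crip1, Rspo1, Hrh1, Adora2b, Mustn1, Nov and Dpys. These were ranked among the 171 higher genes with at least 20 CPM and the same direction in 5 of 5 mice. Rspo1, a secreted enhancer of Wnt signalling, held 133 (133.1), 153, 133, 191 and 197 CPM, against 9.52 ± 1.02 in the other neurons (log2 fold change 4.23 ± 0.14). PEP1_Dcn was next with 105 ± 29.8 CPM, and its mice overlapped with NP_Mrgpra3. Crip1, a LIM domain protein, held 730 (730.3), 431, 953, 960 (959.6) and 1081 CPM against 42.5 ± 9.65 (log2 fold change 4.41 ± 0.24). Crip1 was also strong in satellite glia (942 ± 126), and it was uneven among the cells, from 0 UMIs in 6 cells to 372 in another. Tmprss11c, a transmembrane serine protease, held 24.97 ± 4.51 CPM against 1.10 ± 0.28, and 0 of 249 glia had a UMI.

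The genes named by size in the comparison with NP_Mrgprd included Nrp1, a receptor of semaphorins and vascular growth factors, with 147 ± 31.6 against 1.25 ± 1.06 CPM (log2 fold change 6.997 ± 0.29). Nrp1 was also among those named against NP_Nts (0.654 ± 0.397 CPM, log2 fold change 7.68 ± 0.25). Rgs5, a regulator of G protein signalling, was named in both as well. It held 241 CPM in mouse A and 46.6 to 77.7 in the others, and 42 of the 104 cells had no UMI. Single cells held 87 of the 123 Rgs5 UMIs in mouse A and 50 of the 69 in mouse C. Car8 and Cpne4, genes of a carbonic anhydrase-related protein and a copine, each held 161 CPM, against 0.640 ± 0.315 and 1.36 ± 0.23 in NP_Mrgprd, but Car8 held 136 ± 25.6 in NP_Nts. On the other side, the kinase gene Prkcq held 135 ± 8.35 CPM in NP_Mrgprd and 10 UMIs in all in NP_Mrgpra3 (log2 fold change -6.95 ± 0.31). Against NP_Nts the genes of largest fall included Npy2r, a neuropeptide Y receptor, with 284 ± 27.5 CPM there and 3 UMIs in NP_Mrgpra3, and Gper1, an estrogen receptor with 0 UMIs in NP_Mrgpra3 and a level at least 68.7-fold lower. Nefl, the light neurofilament chain, was higher than in NP_Nts (1975 ± 147 against 237 ± 26.4 CPM, log2 fold change 3.17 ± 0.11), whereas Nefh, the heavy chain, differed by 0.13 ± 0.13.

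The 10 genes of largest fold below the other neurons were Ceacam10, Sst, Th, Hs3st2, Cntn1, Fam19a2, Cgnl1, Gm525, Unc80 and Atp2b2. Th, tyrosine hydroxylase, which names a type of touch neurons, had 1 UMI in 104 cells against 69.9 ± 35.01 CPM in the other neurons. Of the 7 listed genes of that type that were tested, all 7 were lower, against 10.8% of all genes tested. The other neurons include that type, so the choice of genes largely set this count. Against NP_Mrgprd 3 of 4 tested were lower, and against NP_Nts the 1 tested, Piezo2, was higher. Cntn1, a contactin of axons, had 11 UMIs against 254 ± 111 CPM (log2 fold change -7.65 ± 0.46), and Atp2b2, a calcium pump, had 3. Ceacam10 had 0 UMIs in NP_Mrgpra3, and without mouse B or mouse C it was not called (adjusted p = 0.016 each in edgeR). Sst, Th, Hs3st2, Fam19a2, Cgnl1, Gm525 and Ceacam10 also lost the call where 25% of the cells of the higher group had to hold a UMI, and Sst, Gm525 and Ceacam10 against the mean of the 11 types.

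Markers of other cells were checked beside these results. The 15 markers of satellite glia summed to between 472 and 1080 (1079.8) CPM over the mice of NP_Mrgpra3, to between 1078 and 1826 in the other neurons, and to at least 100577 in glia, and Sox10 was at 0. Apoe, a lipid carrier and glial marker, was called higher than in NP_Mrgprd (300.5 ± 176 against 111 ± 51.8 CPM), and 5 of the 104 cells held over 100 Apoe UMIs. In each mouse 1 cell held between 56.9% and 94.5% of the Apoe UMIs, and the median cell held 3. Of the 10 endothelial markers, the summed level in NP_Mrgpra3 was 72.8 to 115 CPM, above NP_Mrgprd (10.3 to 14.05) and NP_Nts (5.53 to 18.0) and below endothelial cells (at least 10410). Egfl7 and Esam held 75.03 ± 20.2 and 19.03 ± 2.17 CPM of it, and both were called higher against NP_Mrgprd and NP_Nts. Cldn5, Flt1, Kdr and Tek were at 0, and Pecam1 and Cdh5 held 0.260 and 0.198 CPM against 524.5 and 844 in endothelial cells. Of the 10 Schwann cell markers (627 to 853 CPM), Prx, Mag and Cldn19 were at 0, and Pmp22 was called higher than in NP_Nts. The fibroblast markers summed to 11.7 to 65.9 CPM, with Col1a1, Col3a1 and Pdgfra at 0 and Dcn called higher than in NP_Nts, and the macrophage markers to at most 13.1 CPM. The part of such RNA in the results was not tested.

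Immediate early genes, which also rise during dissociation, moved with the comparison with NP_Nts. Of 17 listed, 12 were tested there, with 6 lower in NP_Mrgpra3 and 6 not called. Against NP_Mrgprd 1 of 14 was higher and 13 were not called. Of all genes tested, 7.43% were lower than in NP_Nts and 6.52% were higher than in NP_Mrgprd. The list summed to between 1611 and 1938 CPM in NP_Mrgpra3, to between 1441 and 1835 in NP_Mrgprd and to between 2794 and 3907 in NP_Nts. Jun held 251 ± 77.8 CPM against 736 ± 139 in NP_Nts (log2 fold change -1.48 ± 0.17), and Atf3 held 87.8 ± 17.2 against 369 ± 135 (-1.96 ± 0.23). The part of handling in these differences was not tested.

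Over 16248 genes with at least 10 UMIs, the mean profile of NP_Mrgpra3 was nearest to NP_Mrgprd in each mouse. The correlation of log2(CPM + 1) across genes, which are not independent replicates and share library and depth, was 0.953 ± 0.009 for NP_Mrgprd, 0.939 ± 0.018 for PEP1_S100a11.Tagln2 and 0.933 ± 0.011 for NP_Nts (SD, n = 5). The second place went to PEP1_S100a11.Tagln2 in mice B to E and to NP_Nts in mouse A. These values overlapped over the mice, and satellite glia and endothelial cells were the farthest, at 0.708 and 0.596.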

How the data were processed

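The authors deposited raw UMI counts per gene and cell and 1 cell type per cell; Cell Ranger, Seurat and mm10 are named in the submitters' processing notes, and cells were selected and clustered by the authors. The members and gene lists were chosen with earlier results of these data known. Counts of each type were summed per library (1 library taken as 1 mouse) in Python 3.11.15. The 4 rows that name no mouse gene (143 UMIs, 6.37e-05% of all) were left out. The test was that of edgeR 4.0.16, run in R 4.3.3 (filterByExpr, TMM, quasi-likelihood test, Benjamini-Hochberg adjustment over all genes tested), without a mouse term. A gene passes the filter through either group, so genes tested are not all genes of a list. The test was checked on simulated counts. No doublet caller was run. Library, batch and animal cannot be told apart.

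Both sums of a comparison come from the same mouse, which pairs them. Deviations of the 2 sums of a mouse from their group means correlated across genes at 0.031 to 0.295. Named genes were those of the lists, a fixed set of itch and nociceptor genes, and the 10 genes of largest fold in each direction per comparison with at least 20 CPM and 1 direction in 5 of 5 mice. Genes beyond these (Pecam1 and Cdh5) belong to the marker lists. Exact Clopper-Pearson intervals at 95% and limits of 3 counts cover counting error only. Libraries held between 13050375 and 88886919 UMIs. Alternatives were a mouse term, DESeq2 1.42.0, other filters, denominators, thresholds and references, and leaving out each mouse.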

Additional observations from a re-analysis of the deposited data

Results flagged for a closer look

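Values of 1 mouse that lay far from the other 4 by Dixon's criterion at 95% were found in 10 of 31 sets of 5 values. Chance gives about 1 in 20 such sets, and sets that share a mouse or a cell are not independent. In mouse A, which had 4 cells, these were Tac1 (873 CPM), Trpa1 (43.1), Plcb3 (131), Osmr (94.0) and Cysltr2 (7.83). In mouse B they were Nts (53.9 CPM) and Gfra2 (23.6), which came almost wholly from 1 cell each. In mouse C they were Trpv1 (135 CPM) and the median mitochondrial share of the cells (3.31%, against 4.32% to 4.55% in the other mice). In mouse D it was Sst (0.398 CPM), which is 1 UMI.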

How the results depend on the processing

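With the replicate block (a term for the mouse), 348 genes were higher and 1276 lower against the other neurons, 664 and 525 against NP_Mrgprd, and 698 and 684 against NP_Nts, so the pairing moved no count by over 1.5 times. The largest change came from the reference. Against the mean of the 11 other neuron types, 876 genes were higher, and 14 of the genes called lower than the sum were called higher. Among the 43 tested genes of the fixed set or of largest fold, 6 turned from a negative to a positive fold change, called or not. These were Mrgprd (2.28), Trpa1 (2.27), Nppb (1.04), Nts (1.00, 0.998), Il31ra (0.11) and Cysltr2 (1.21), all log2. A mean on the log scale gives a gene of 1 type less weight than a sum. Genes lower than the other neurons fell to 741 when 25% of their cells had to hold a UMI. Without a filter, 1128 genes were higher than in NP_Nts. Without normalization beyond the library total, the median log2 fold change of all genes shifted from -0.06 to -0.18 against the other neurons and from -0.04 to -0.15 against NP_Nts. With genes of at least 100 UMIs, the correlations were 0.940 (0.9396) for NP_Mrgprd and 0.914 for NP_Nts.

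Leaving out each mouse gave 325 to 426 genes higher and 1147 to 1296 lower against the other neurons, 593 to 716 and 436 to 559 against NP_Mrgprd, and 616 to 747 and 582 to 718 against NP_Nts. The share of cells then lay between 2.52% and 2.99%. Calls of single genes were followed under the alternatives for the fixed set and the genes of largest fold, and not for the other list genes. Against NP_Mrgprd 0 of 32 such genes lost the call under any alternative, and against NP_Nts 3 of 32 did (Hrh1, Ret and Serpina1e). Against the other neurons 17 of 34 lost it. The alternatives without the 6 cells that lack Mrgpra3, and without 1 cell each in mice B and C, were chosen after seeing the data. Depth limits genes of few UMIs, most of all in the 4 cells of mouse A.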
